A study of Drosophila melanogaster with 2 samples.

Results

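The Notch pathway lets a cell read a ligand on its neighbour and turn that contact into transcription. The receptor Notch (N) is bound by the ligands Delta (Dl) and Serrate (Ser), the ligand is pulled into the sending cell after ubiquitination by Neuralized (neur) or Mind bomb (mib1), and the exposed receptor is cut first by the metalloprotease Kuzbanian (kuz) and then by gamma-secretase. The released intracellular domain joins the DNA-binding protein Suppressor of Hairless (Su(H)) and the coactivator Mastermind (mam) in the nucleus. Without it, Hairless (H) ties Su(H) to corepressors and target genes are held silent. Fringe (fng) adds a sugar to the receptor that raises its response to Delta and lowers its response to Serrate. In the blood cells of the larva, Serrate to Notch signalling directs cells to the crystal cell fate.

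These 10 genes (N, Dl, Ser, neur, mib1, fng, kuz, Su(H), mam and H) were taken by symbol from the 17807 genes of the deposited table, and no measured value entered that rule. The list itself was chosen with earlier results of these data known. Dl is listed in the annotation under the symbol Delta and was matched through its synonym. RNA was measured in 2 libraries, replicates 1 and 2 of the control condition, from Kc167 cells, a clonal line derived from Drosophila embryos and grown at 25 °C in a serum-free insect medium. Both libraries carry the same exposure to 2% DMSO, the solvent control, for 1 h. With 1 condition there was no contrast between treatments, and the labels do not say whether the replicates were separate cultures, so the spread between them may be technical. RNA of all cells in a culture was pooled in each library, so fewer cells with a transcript and less of it per cell cannot be told apart.

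Replicate 1 held 33436865 counts on genes and replicate 2 held 31721648, where a count is a read pair placed on a gene in the strand orientation of the kit. A gene with 0 counts could still have a level of up to 0.0897 CPM (counts scaled to the library total) in replicate 1 and 0.0946 CPM in replicate 2, the equivalent of 3 counts. Levels between genes are given in TPM, in which counts are taken per base of gene length and both libraries are brought to the same sum. Intervals are 95% and cover counting error only. A gene is called counted here where both libraries hold 10 counts or more on it. Markers of cell types came from lists chosen with earlier results of these data known. All 8 blood cell markers were counted, beside 59.5% of protein-coding genes, from 1.76 TPM for NimC1 to 188 TPM for He. Their summed level was 331 TPM in replicate 1 and 344 TPM in replicate 2. Most of it came from He, Hml, srp and ush, which were above the median of counted protein-coding genes, 32.7 TPM. The others were well below it, with eater at 5.41 TPM, Pxn at 4.18, Sr-CI at 2.34 and NimC1 at 1.76. Being counted did not set the blood cell markers apart. Of the 4 neuron markers 3 were counted, and of the 3 muscle markers 1 was. The 4 neuron markers summed to 1.53 and 1.64 TPM and the 3 muscle markers to 0.142 and 0.101 TPM. All 3 markers of the germline were also counted, and they summed to 80.3 and 81.8 TPM. Among these, bam was at 57.2 TPM, nos at 20.8 TPM and vas at 3.05 TPM. None of the 18 markers was at 0 in both libraries.

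RNA of the receptor, of kuz, of the nuclear factors, of both ubiquitin ligases and of the ligand Ser was found in these cells, whereas Dl and fng were close to the lower end of what could be measured. Of the 10 genes, 9 were counted, Dl being the exception, beside 49.7% of all genes and 59.5% of protein-coding genes. A mean of at least 1 TPM was reached by 8 genes, all but Dl and fng, beside 55.3% of protein-coding genes. The 10 genes together held 26260 counts in replicate 1 and 24498 in replicate 2, that is 0.0785% and 0.0772% of the gene counts.

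**Figure D1:**
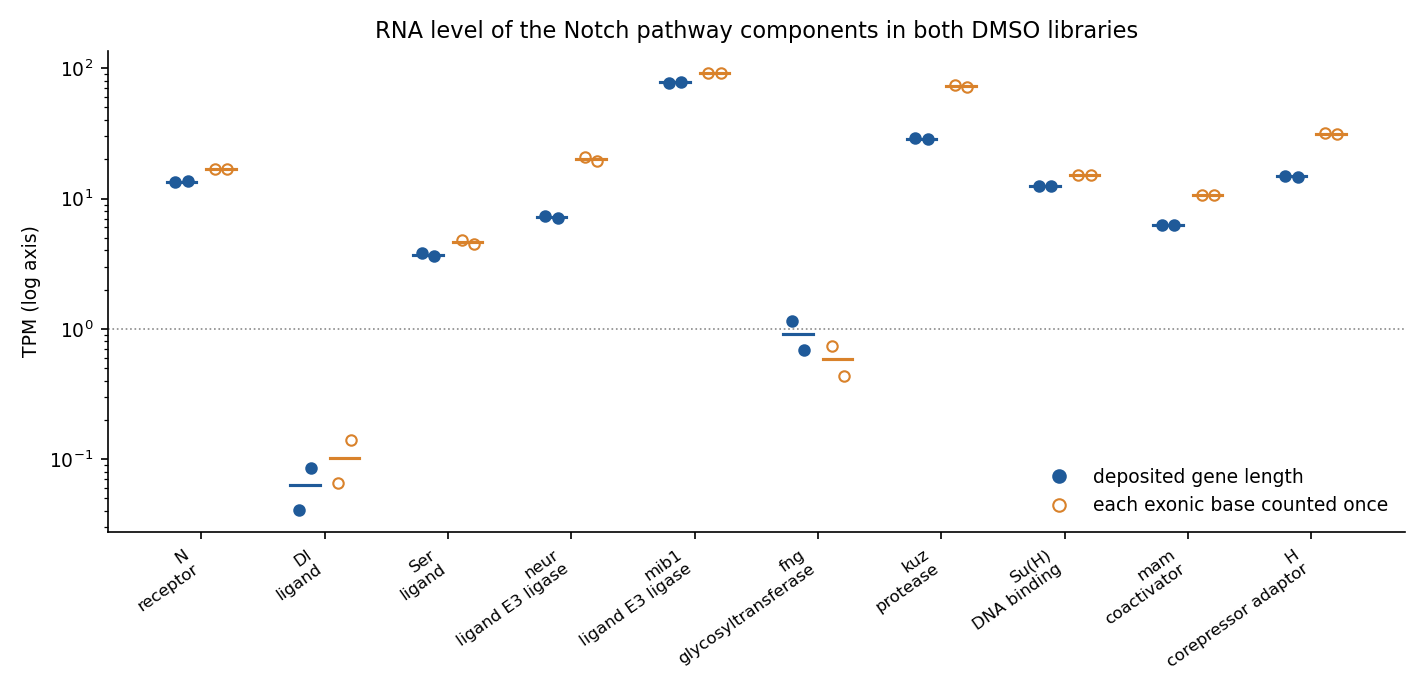
RNA level of the 10 Notch pathway components in TPM (log axis) in replicates 1 and 2, with the gene length of the deposited table and with each exonic base counted once. The levels run from 77.8 TPM for mib1 down to 0.0634 TPM for Dl with the deposited length, and the replicates lie close together except at fng and Dl.

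The receptor gene N lies on chromosome X at 3134870 to 3172221 on the plus strand (dm6), with 2 annotated transcripts from 1 start site. Replicate 1 held 2936 and replicate 2 held 2787 read pairs on it, a level of 13.4 and 13.6 TPM (mean 13.5 ± 0.118, SD, n = 2). The libraries were thus nearly equal at N, which stood above 31.0% of the counted protein-coding genes.

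The ligands were far apart. Ser, on 3R at 27172090 to 27194267 on the minus strand with 2 transcripts from 2 start sites, had 481 and 427 counts, or 3.82 and 3.61 TPM (mean 3.71 ± 0.143, SD, n = 2). Dl, on 3R at 19302731 to 19326217 on the minus strand with 3 transcripts from 1 start site, had 6 counts in replicate 1 (Poisson interval 2.20 to 13.1) and 12 in replicate 2 (6.20 to 21.0). These correspond to 0.0404 and 0.0863 TPM (mean 0.0634 ± 0.0324, SD, n = 2). Dl thus had counts in both libraries, but its level rests on few read pairs. The interval of replicate 1 reaches below the 3 counts that a count of 0 allows. The level of Ser was 94.3 times that of Dl in replicate 1 (interval 43.0 to 258) and 41.9 times in replicate 2 (23.7 to 81.7), and the ratio of the mean levels was 58.6. Both intervals lie far above 1, while the size of the fold depends on which library is taken. The level of N was 3.52 times that of Ser in replicate 1 and 3.76 times in replicate 2.

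Of the ubiquitin ligases that act on the ligands, mib1 had the higher level in both libraries. The gene mib1, on 3L at 16006552 to 16011812 on the minus strand with 2 transcripts from 2 start sites, had 6467 and 6183 counts, or 77.0 and 78.5 TPM (mean 77.8 ± 1.07, SD, n = 2). It was the highest of the 10 genes and the only one of them above the median of the counted protein-coding genes, which was 32.7 TPM. The gene neur, on 3R at 9020348 to 9039471 on the minus strand with 5 transcripts from 2 start sites, had 1544 and 1377 counts, or 7.39 and 7.03 TPM (mean 7.21 ± 0.255, SD, n = 2). The level of mib1 was 10.4 times that of neur in replicate 1 (9.85 to 11.0) and 11.2 times in replicate 2 (10.5 to 11.8). This fold depends on the gene length used, since with each exonic base counted once it was 4.41 and 4.72.

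The modifiers of the receptor also differed in level. The glycosyltransferase gene fng, on 3L at 20925891 to 20949512 on the minus strand with 1 transcript, had 25 and 14 counts, or 1.15 and 0.689 TPM (mean 0.921 ± 0.328, SD, n = 2). Only Dl was lower among the 10 genes, and fng was detected in both libraries. The level of N was 11.6 times that of fng in replicate 1 (7.87 to 18.0) and 19.7 times in replicate 2 (11.7 to 36.1), intervals that overlap. Counting each exonic base once gave folds of 22.7 and 38.4. The protease gene kuz, which spans 2L from 13550139 to 13639411 on the plus strand with 5 transcripts from 1 start site, had 9085 and 8370 counts, or 29.1 and 28.6 TPM (mean 28.8 ± 0.357, SD, n = 2). It had more counts than any other of the 10 genes, yet ranked below mib1 per length. The level of kuz was 2.17 and 2.10 times that of N with the deposited length, and 4.42 and 4.29 times with each exonic base counted once.

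In the nuclear group, the DNA-binding factor, its coactivator and its antagonist lay between 6.26 and 14.8 TPM with the deposited length. Su(H), on 2L at 15039488 to 15043334 on the plus strand with 2 transcripts, had 775 and 728 counts, or 12.54 and 12.57 TPM (mean 12.6 ± 0.0168, SD, n = 2). The coactivator gene mam, on 2R at 13991203 to 14060356 on the plus strand with 4 transcripts from 3 start sites, had 1641 and 1543 counts, or 6.25 and 6.27 TPM (mean 6.26 ± 0.0127, SD, n = 2). The antagonist H, on 3R at 20621938 to 20628915 on the plus strand with 4 transcripts from 1 start site, had 3300 and 3057 counts, or 14.9 and 14.7 TPM (mean 14.8 ± 0.126, SD, n = 2). The level of H was 1.18 times that of Su(H) in replicate 1 (1.10 to 1.28) and 1.17 times in replicate 2 (1.08 to 1.27). With each exonic base counted once the same fold was 2.09 and 2.06. The level of Su(H) was 2.01 and 2.00 times that of mam, or 1.42 in each library with each exonic base counted once. All of these are levels of RNA, and protein was not measured.

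In falling order of mean TPM the genes were mib1, kuz, H, N, Su(H), neur, mam, Ser, fng and Dl. The libraries' values of neighbours in this order did not overlap at any step. The closest steps were from H to N, a fold of 1.09 (1.06 to 1.13), and from N to Su(H), a fold of 1.08 (1.02 to 1.14). With 2 libraries these small steps rest on a spread that is itself poorly known. The highest mean level, mib1, was 1227 times the lowest, Dl, with 1904 in replicate 1 and 910 in replicate 2.

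The order depends in part on how long a gene is taken to be. For each of the 10 genes the deposited length is the sum of the exons of all annotated transcripts, and an exon used by more than 1 transcript enters it repeatedly. Fng has 1 transcript and a deposited length equal to its exonic length of 1959 bases. At neur, with 5 transcripts, the deposited length of 18871 bases is 4.38 times the 4309 bases of its exons counted once, and at kuz the ratio is 3.98 and at H 3.34. For N, Ser, mib1 and Su(H), with 2 transcripts each, it lies between 1.85 and 1.95, with Dl at 2.54 and mam at 2.67. With each exonic base counted once, neur was at 20.2 TPM, kuz at 73.1, H at 31.5, N at 16.8, Su(H) at 15.2, mam at 10.7, Ser at 4.63 and mib1 at 92.0. The levels of fng and Dl were 0.588 and 0.103 TPM on this scale, where a gene whose length stays the same falls to 0.638 of its deposited TPM because all genes share the same total. Thus neur moved above N and Su(H), the rank of 3 genes changed, and the counting interval of the fold of mib1 over kuz went from 2.63 to 2.76 down to 1.23 to 1.29. Which transcripts were present in these cells was not measured, so neither length is known to be the right one.

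**Figure D2:**
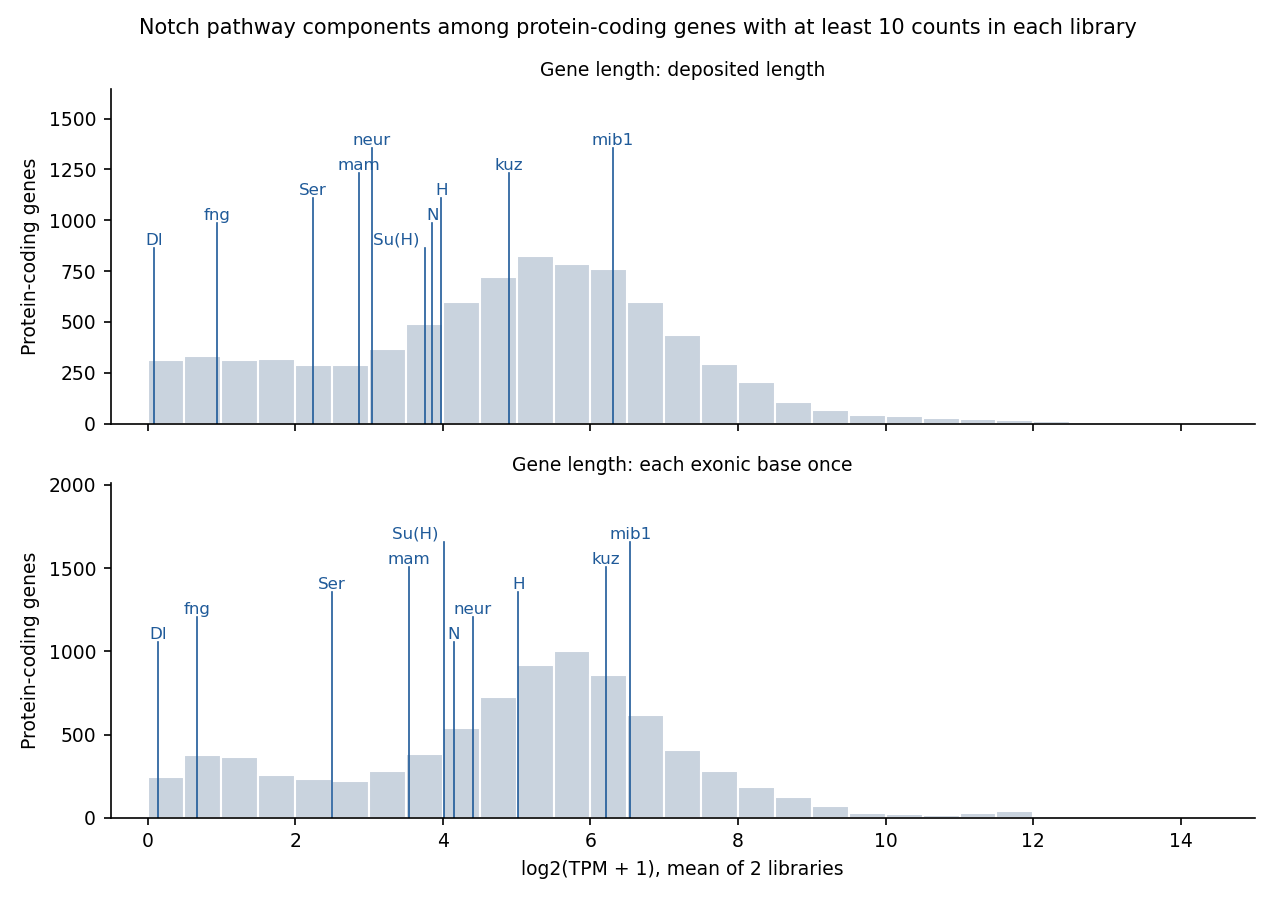
Number of counted protein-coding genes by log2(TPM + 1), the mean of 2 libraries, with the deposited length above and each exonic base counted once below. Vertical lines mark the 10 Notch pathway components, including Dl, which is not in the histogram. With the deposited length mib1 alone lies above the median of these genes, and with the other length mib1 and kuz do.

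Among the counted protein-coding genes, most of the pathway sat in the lower part of the distribution. The median log2(TPM + 1) of the 10 genes was 3.40, beside 5.07 for those protein-coding genes and 0.72 for all genes of the table. The share of the protein-coding genes that lay below a gene was 74.0% for mib1 and 46.8% for kuz, then 32.5% for H, 29.6% for Su(H), 22.6% for neur, 21.3% for mam, 16.8% for Ser and 7.30% for fng. With each exonic base counted once, it rose to 78.2% for mib1, 71.7% for kuz, 44.4% for H, 33.7% for neur, 24.3% for mam and 17.8% for Ser, and it was lower for N at 30.2%, Su(H) at 28.7% and fng at 4.51%. The genes that moved most, kuz, H and neur, are also the 3 with the largest ratio of deposited to exonic length.

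The libraries gave closely similar values for the genes with enough counts. For the 8 genes with over 100 counts, the TPM of the libraries varied by 0.134% to 3.86% of the mean, and the log2 ratio of replicate 1 to replicate 2, after scaling to the total counts, was at most 0.096 in size. Fng had a log2 ratio of 0.76 (−0.24 to 1.82) and Dl one of −1.08 (−2.78 to 0.45), both with an interval that includes 0. An exact two-sided binomial test of the counts, with Benjamini-Hochberg adjustment over 8846 genes, called 0 of the 9 genes tested, beside 1.51% of counted genes. At an unadjusted p under 0.05, 0 of the 9 genes passed by this test, beside 10.1% of counted genes, and 1 passed when the libraries were scaled by edgeR's TMM factors or by DESeq2's size factors. The lowest unadjusted p was 0.0535, at kuz, and the lowest adjusted p was 0.511. The test compares these libraries and not conditions.

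**Figure D3:**
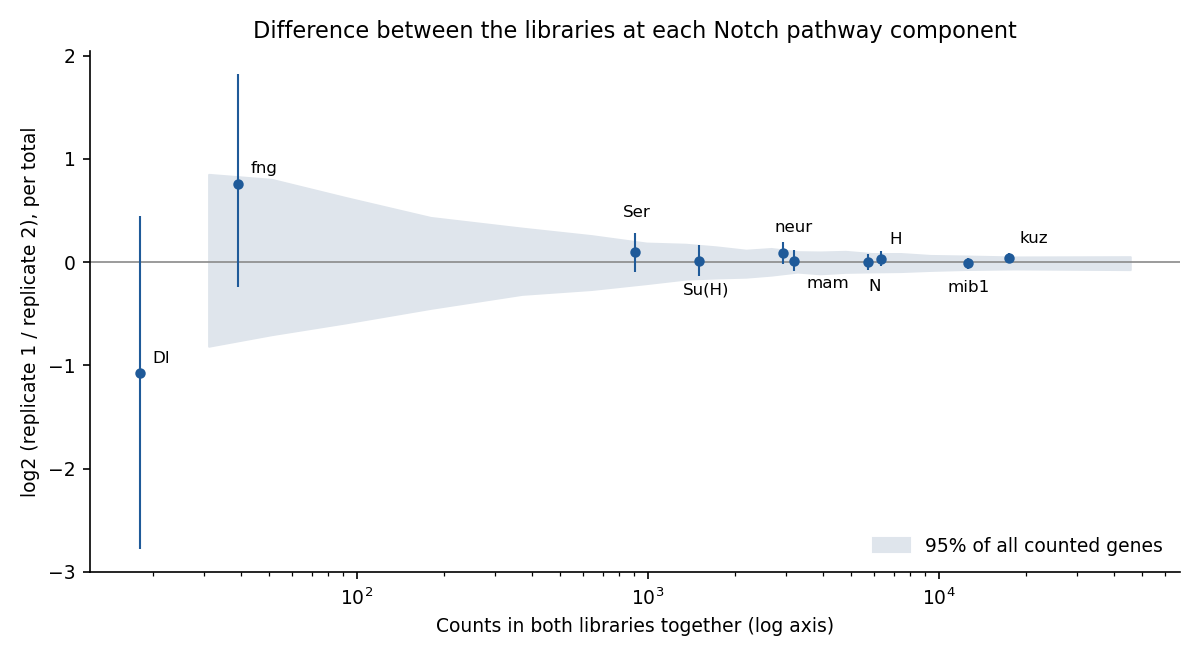
Log2 ratio of replicate 1 to replicate 2, per total of gene counts, against the counts of both libraries together (log axis) for the 10 Notch pathway components. Bars are 95% counting intervals and the band holds 95% of all counted genes, in bins of similar counts. The 8 genes with over 100 counts lie near 0, and the interval narrows from Dl to kuz as counts rise.

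The strand of the read pairs bears on neur in particular. The kit keeps strand, and the authors' table uses the counts that match it. Counts on the opposite strand were few, from 0.571% to 3.02% of both strands together at the 8 genes with over 100 counts, where the median of 7299 protein-coding genes was 1.45% in replicate 1 and 1.36% in replicate 2. The highest shares were those of mam, 3.01% (2.25 to 3.94, exact binomial interval) and 3.02% (2.23 to 3.98). At Dl the opposite strand had 0 and 2 counts, and at fng 1 and 0.

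At neur, counting without regard to strand gave 699 and 615 read pairs, 0.450 of the strand-matched counts of both libraries. The noncoding gene asRNA:CR31429 lies within neur on the other strand, and its exons share 1673 bases with those of neur, 38.8% of the exonic bases of neur. In unstranded counting a read pair over the exons of both genes is given to neither. On its own strand asRNA:CR31429 had 7 and 3 counts, while the opposite column of the same gene, which holds read pairs in the orientation of neur, had 852 and 774. The strand-matched neur counts therefore hold read pairs that the unstranded column leaves out, and with unstranded counts neur was at 3.29 TPM and in eighth place of the 10 genes. The other overlaps of exons were short, with 48 bases between mib1 and mRpS31, 22 between fng and CG10589, and 27 between kuz and mir-2489, the last on the same strand and with 0 counts.

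**Figure D4:**
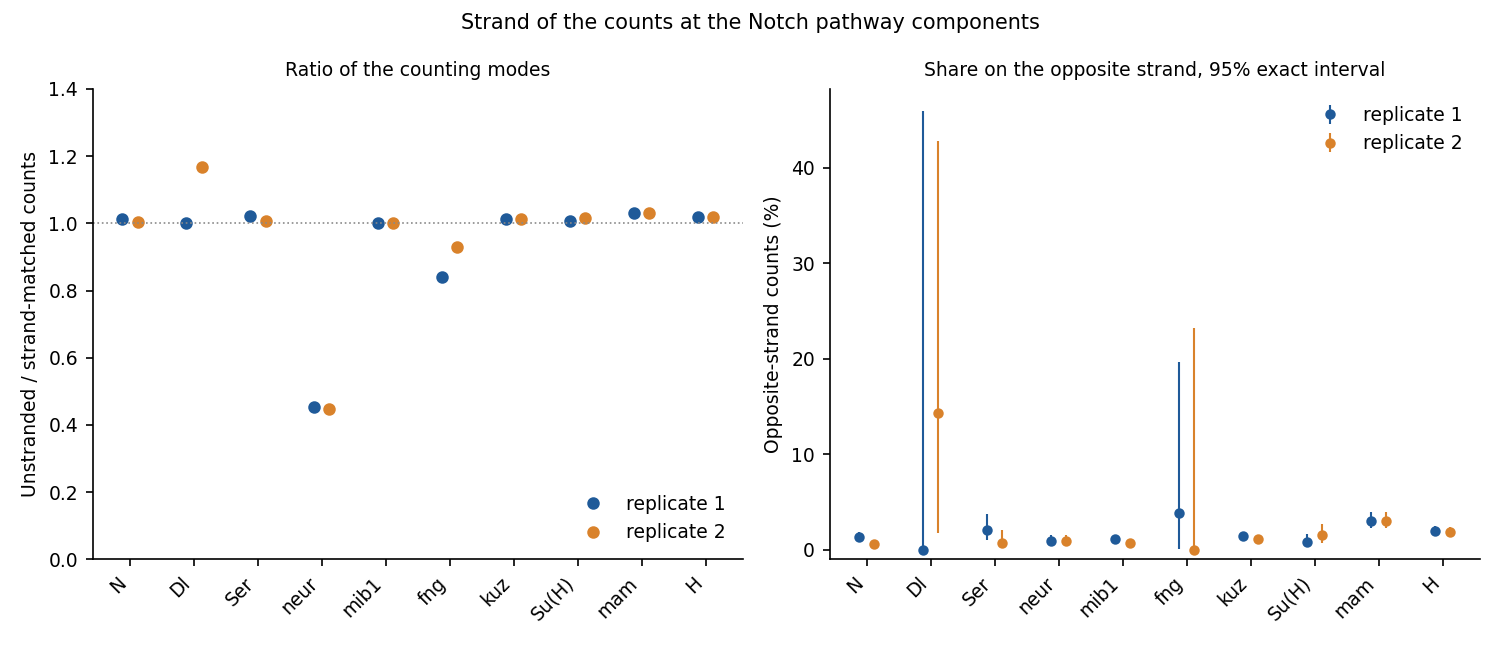
Left, unstranded counts divided by strand-matched counts at each Notch pathway component in replicates 1 and 2, with a dotted line at 1. Right, the share of counts on the opposite strand in percent, with 95% exact binomial intervals, which are wide at Dl and fng because they rest on few counts. Neur stands apart on the left, at 0.450 over both libraries, and its opposite-strand share is under 1% in each library.

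The rest of the pathway was followed in a list of 44 other genes, of which 34 were counted, beside 59.5% of protein-coding genes. A mean of at least 1 TPM was reached by 30 of them, beside 55.3% of protein-coding genes. Levels below use the deposited length, and many of them depend on it. With each exonic base counted once, lqf went from 9.98 to 47.7 TPM, Nedd4 from 19.1 to 83.0 and Fur2 from 9.04 to 45.1. Between the libraries, 0 of the 34 genes tested passed the exact binomial test after adjustment over 8846 genes, beside 1.51% of counted genes. At an unadjusted p under 0.05, 2 of the 34 passed (Nedd4 and E(spl)mbeta-HLH), beside 10.1% of counted genes.

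All 4 genes of receptor glycosylation other than fng were counted, beside 59.5% of protein-coding genes. O-fut1, which adds the O-linked fucose that Fringe extends, was at 153 and 159 TPM (mean 156 ± 4.34, SD, n = 2). The glucosyltransferase gene rumi was at 50.5 TPM, the xylosyltransferase gene shams at 52.8 TPM and Efr, a transporter of nucleotide sugars, at 44.2 TPM. Each of the 4 was thus above the level of N, while fng was below it.

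All 8 genes of the other proteases were counted, beside 59.5% of protein-coding genes. The gamma-secretase subunits were all present, with Psn, the catalytic subunit, at 74.9 TPM, nct at 60.3, aph-1 at 40.1 and pen-2 at 33.9. Among the metalloproteases related to kuz, kul was at 5.26 TPM and Tace at 0.473 TPM. The level of Tace rests on only 26 counts in replicate 1 and 22 in replicate 2. The opposite strand at Tace held a similar number, 29 and 18. The source of these opposite-strand counts was not tested, and the intervals of the folds over Tace do not cover it. The level of kuz was 5.71 times that of kul in replicate 1 (5.38 to 6.05) and 5.27 times in replicate 2 (4.97 to 5.59), and 58.5 times that of Tace (39.9 to 89.7) and 63.7 times (42.1 to 102). The folds over Tace were 121 and 132 with each exonic base counted once. Kuz was thus the highest of these 3 protease genes in both libraries. The furin genes Fur1 and Fur2 were at 11.3 and 9.04 TPM, an order that turns with each exonic base counted once, where they were at 30.2 and 45.1 TPM.

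On the side of the ligand, mib2, a relative of mib1, was at 36.0 TPM and lqf, the epsin that brings ubiquitinated ligand into the cell, at 9.98 TPM. The level of mib1 was 2.14 times that of mib2 in replicate 1 (2.06 to 2.22) and 2.18 times in replicate 2 (2.10 to 2.27). The Bearded family proteins bind and inhibit Neuralized, and 3 of their 8 genes were counted, beside 59.5% of protein-coding genes. E(spl)malpha-BFM had 233 and 256 counts, or 31.1 and 36.5 TPM (mean 33.8 ± 3.79, SD, n = 2), and E(spl)m2-BFM and E(spl)m4-BFM were at 1.89 and 1.79 TPM. The 5 others had at most 3 counts in either library, and BobA had 0 in both, which allows a level of up to 0.0897 and 0.0946 CPM. With the deposited length E(spl)malpha-BFM was above neur in both libraries. With each exonic base counted once the libraries gave opposite orders, with E(spl)malpha-BFM at 19.9 and 23.2 TPM and neur at 20.7 and 19.6 TPM.

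All 8 genes of receptor trafficking and turnover were counted, beside 59.5% of protein-coding genes. The ubiquitin ligase gene dx was at 34.4 TPM, lgd, which acts in the endosome, at 33.7 TPM, and the ubiquitin ligase genes Su(dx) and Nedd4 at 24.6 and 19.1 TPM. The arrestin gene krz was at 14.4 TPM. The 3 lowest of the group were spdo at 1.23 TPM, numb, an inhibitor of Notch in asymmetric cell division, at 0.871 TPM, and bib, a channel gene, at 0.491 TPM.

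The 3 nuclear corepressor genes of the list were all counted, beside 59.5% of protein-coding genes. CtBP was at 61.5 TPM and gro at 30.8 TPM, both corepressors that Hairless recruits, and insv, another Su(H)-binding repressor, was at 4.33 TPM. The level of gro was 2.06 times that of H in replicate 1 (1.98 to 2.14) and 2.11 times in replicate 2 (2.03 to 2.20). It was 4.51 and 4.62 times with each exonic base counted once.

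Of 11 target genes, 6 were counted (54.5%), a share near the 59.5% of all protein-coding genes. Among the bHLH repressors of the Enhancer of split complex, which are direct targets of Notch, the level of E(spl)mbeta-HLH was highest. It had 1067 and 1164 counts, or 98.6 and 115 TPM (mean 107 ± 11.4, SD, n = 2). With each exonic base counted once it was at 63.1 and 72.9 TPM. It was higher in replicate 2, with an unadjusted p of 0.0010 by the exact binomial test and an adjusted p of 0.0622, so it did not pass. E(spl)mgamma-HLH was at 9.33 TPM, E(spl)m3-HLH at 5.94 and E(spl)mdelta-HLH at 1.95. The level of E(spl)mbeta-HLH was 11.2 times that of E(spl)mgamma-HLH in replicate 1 (8.99 to 14.0) and 11.7 times in replicate 2 (9.43 to 14.6), and it made up 85.3% and 85.7% of the summed TPM of the 7 bHLH genes. The other bHLH genes were near the lower limit, with 5 and 4 counts at E(spl)m7-HLH, 3 and 1 at E(spl)m5-HLH, and 1 and 2 at E(spl)m8-HLH.

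Outside the complex, the homeobox gene ct was at 12.3 TPM. The Runx gene lz, which acts with Notch in crystal cells, had 20 and 17 counts, or 0.275 and 0.249 TPM. The neural targets dpn and Hey had 1 and 3 and 0 and 1 counts. Transcription driven by Notch cannot be read from these levels alone, since no library with the pathway blocked or activated was analysed here.

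**Figure D5:**
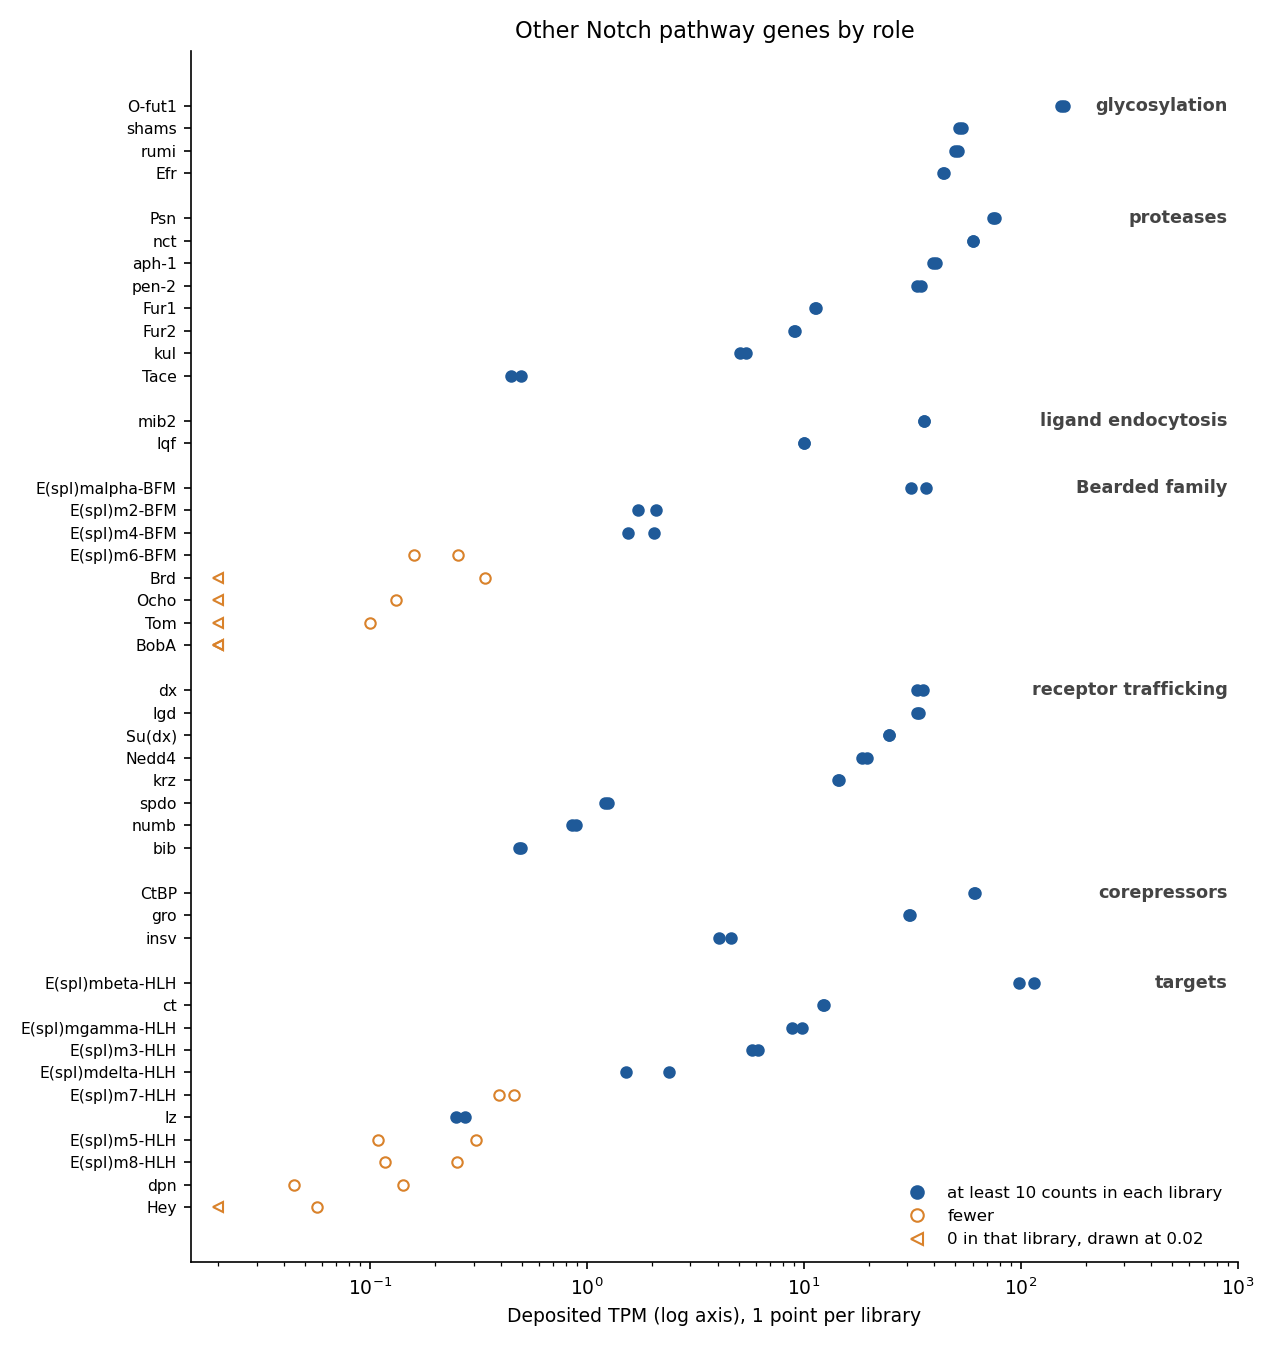
Level in TPM (log axis) of 44 other genes of the Notch pathway, grouped by role, with 1 point per library (filled for counted genes, open for the others, a triangle at the left edge for a library with 0 counts). O-fut1, at 156 TPM, and E(spl)mbeta-HLH, at 107 TPM, have the highest means with the deposited length, and the genes below 1 TPM lie mainly among the Bearded family and the targets. This order at the top depends on the length. With each exonic base counted once, Psn was at 221 TPM, CtBP at 191, O-fut1 at 184 and E(spl)mbeta-HLH at 68.0.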

How the data were processed

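Poly(A) RNA of Kc167 cells was sequenced as stranded paired-end libraries. Per the labels, the authors aligned reads with STAR 2.7.1a to dm6. They deposited raw counts per gene for 3 strand settings and a table that adds gene length and TPM, where the authors' TPM is the strand-matched count divided by that length and scaled per library. It held 0 value columns without a sample or group. Other assays of the study were not analysed here.

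Rows that name no gene (21.6% of read pairs in replicate 1, 21.0% in replicate 2) were left out of the totals. Read pairs placed at several sites were counted on no gene. Coordinates and exons came from Ensembl release 115 (BDGP6.54), and symbols and lengths were found for 17710 of 17807 genes. Counted genes have at least 10 counts in each library. Levels were summarised as log2(TPM + 1), a pseudocount of 1, and TPM was recomputed from unstranded counts, from the longest transcript and with each exonic base counted once. Count ratios carry exact counting intervals. Libraries were compared by an exact binomial test with Benjamini-Hochberg adjustment at 0.05. Scaling by edgeR 4.0.16 and DESeq2 1.42.0 served as alternatives (R 4.3.3, Python 3.11.15, scipy 1.17.1). The test was tried on simulated counts with counting error only, which cannot show how it behaves where libraries spread more widely. With 1 library against 1, no model with replicate error could be fitted.

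The genes named are the 10 components, a list of 44 other pathway genes, 18 cell type markers and genes with exons over the components. The components and lists were chosen with earlier results of these data known. Promoter motifs and protein sequences had been planned and were not run here.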

Additional observations from a re-analysis of the deposited data

How the results depend on the processing

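The number of the 10 genes counted in both libraries was 9, and it was 10 with a minimum of 1 count or in replicate 2 alone. The number with at least 1 TPM was 8 under both other gene lengths and unstranded counts, and 9 in replicate 1 alone. The median log2(TPM + 1) of 3.40 was 3.36 from unstranded counts, 4.08 with each exonic base counted once, 4.03 for the longest transcript, 3.27 with a pseudocount of 0.1 and 3.76 over the 9 counted genes, and leaving out a library gave 3.38 to 3.41. Both other lengths moved the TPM of 10 of 10 genes by more than the spread of the replicates, while unstranded counts moved 7. The moves under the other lengths include the rescaling of all genes to the same total. At fng, whose length stays the same, TPM went from 0.921 (SD 0.328) to 0.588 with each exonic base counted once through this rescaling alone. The fold of Ser over Dl, 58.6, was 53.4 from unstranded counts, 45.1 with each exonic base counted once and 45.2 for the longest transcript, and it was 94.3 without replicate 2 and 41.9 without replicate 1, since Dl had 6 and 12 counts. The fold of mib1 over Dl ranged from 910 to 1904 in the same way, without replicate 1 and without replicate 2. None of the 10 genes was called between the libraries by the exact binomial test under TMM factors, DESeq2 size factors, unstranded counts or over every gene detected in either library. At an unadjusted p under 0.05, 1 gene passed under each of the first 3 of these and 0 under the last, beside 10.1% of counted genes with scaling to the totals. The median counted gene rose by 0.19 on the log2 scale with each exonic base counted once. Depth limits Dl and fng, whose levels rest on 18 and 39 counts. No paired analysis was possible because the 2 libraries are of the same condition.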

Other observations

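The 11 listed genes of the Enhancer of split complex, 7 bHLH genes and 4 genes of the Bearded family, lie within 43388 bases on 3R, from 25997621 to 26041008. Each has 1 annotated transcript and the same deposited and exonic length, so their levels relative to each other do not depend on that choice. Of the 11, 7 were counted, beside 59.5% of protein-coding genes. The highest of either kind were E(spl)mbeta-HLH, at 107 TPM, and E(spl)malpha-BFM, at 33.8 TPM.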
